A study of Mus musculus with 86 samples.

Results

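The CCR4-NOT complex is the main machine that shortens the poly(A) tails of cytoplasmic mRNAs, and the RNAs of 10 of its subunit genes (Cnot1, Cnot2, Cnot3, Cnot4, Cnot6, Cnot6l, Cnot7, Cnot8, Cnot9 and Cnot10) were followed here among the 53664 genes quantified in mouse neuronal cells. The genes were chosen by name and not by their own values, though with earlier results of these data known. All 10 passed the filter on low counts in each experiment.

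The cultures of 3 experiments were separated into cell bodies (soma) and neurites, with 3 replicates in each of 12 groups and 36 libraries in all. CAD cells are a mouse brain-derived catecholaminergic line and N2A cells a mouse neuroblastoma line. Both lines were TetOff TDP-43 cells, in which the endogenous TDP-43 (Tardbp) alleles had been inactivated by CRISPR/Cas9 and an HA-tagged, single-copy TDP-43 transgene with silent mutations was the remaining source of the protein. The WT group of each line was left without doxycycline (labelled minus dox), and the KO group received 2 µg/mL doxycycline for 48 h per the labels (plus dox), which turns the transgene off. Each of these lines grew from a single cell, and the WT cells also lack endogenous TDP-43. In these TetOff lines doxycycline itself was given to the KO groups only, so that its effect cannot be told apart from that of TDP-43 loss. The last experiment compared CAD cells that express WT TDP-43 with CAD cells that express Q331K TDP-43, an amyotrophic lateral sclerosis mutant, each from a doxycycline-inducible HA-tagged transgene added to otherwise wild-type cells. By the paper's methods both received doxycycline before fractionation, to induce the transgene. The WT cells of this experiment were thus treated, unlike the WT groups of the TetOff lines. Cells were differentiated without serum on transwell membranes with 1 µm pores. The paper reports slightly shorter neurites after TDP-43 loss, measured in CAD cells. Nothing in the labels says whether replicates were separate cultures, so p-values measure only the spread between these samples.

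In the mouse complex CNOT1 is the scaffold on which the other subunits sit. CNOT6 and CNOT6L are paralogous catalytic subunits of the Ccr4 type, CNOT7 and CNOT8 are paralogous catalytic subunits of the Caf1 type, and a complex holds a single member of each pair. CNOT2 and CNOT3 form a module that binds other proteins, CNOT9 contacts the TNRC6 proteins of the miRNA pathway, CNOT10 and CNOT11 dock at the N-terminal end of CNOT1, and CNOT4 is a RING-type ubiquitin ligase that is loosely bound in mammals. Tail shortening by this complex precedes the decay of most mRNAs, and TDP-43 is a nuclear RNA-binding protein that prefers UG-rich sequence and also acts in splicing.

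In the GRCm38 (mm10) annotation the scaffold gene Cnot1 (ENSMUSG00000036550.16) lies at chr8:95719451-95807464 on the minus strand. The genes of the CNOT2/CNOT3 module are Cnot2 (chr10:116485161-116581511, minus strand) and Cnot3 (chr7:3645268-3661109, plus strand). Cnot6 (chr11:49671503-49712723, minus) and Cnot6l (chr5:96070333-96164171, minus) encode the Ccr4-type enzymes, and Cnot7 (chr8:40492540-40515847, minus) and Cnot8 (chr11:58104153-58118594, plus) the Caf1-type enzymes. Cnot9 is at chr1:74506058-74530842 on the plus strand, Cnot10 at chr9:114585878-114640184 on the minus strand and Cnot4 at chr6:35022065-35133724 on the minus strand. The genes have 93 annotated transcripts, and those of Cnot1 and Cnot6 differ by short in-frame stretches of coding sequence, in capitals here between their flanking bases (5′ to 3′ on the mRNA strand). They are printed because the genotype differences among transcripts, described further on, were called for these forms.
Cnot1-202, with the 15-base segment at chr8:95754965-95754979: cagcagaGTAAGATGAAACCTTccgactt
Cnot1-203, without that segment: cagcagaccgactt
Cnot1-202, with the 6-base segment at chr8:95774723-95774728: gatttccatcagACACAGtttctgattcag
Cnot1-203, without that segment: gatttccatcagtttctgattcag
Cnot6-203, with the 15-base segment at chr11:49685248-49685262: ttgtcagGTACTGCAAAAAGAAtttcaac
Cnot6-201, without that segment: ttgtcagtttcaac

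Sequencing gave 25009904 to 32895542 estimated counts a library in CAD cells, 22726534 to 31911030 in N2A cells and 9783050 to 15870647 in the transgene experiment. Tardbp itself, in CPM (counts relative to the library total, scaled between libraries by the trimmed mean of M-values, TMM), was 515, 569 and 526 in CAD WT soma and 92.7, 90.4 and 98.3 in KO soma, a log2 change of -2.52 (edgeR adjusted p = 3.35e-12). It fell by 1.89 in CAD neurites, 1.78 in N2A soma and 1.41 in N2A neurites on the log2 scale. Between WT and Q331K cells total Tardbp differed by -0.02 in soma and 0.08 in neurites (adjusted p = 0.985 and 0.827), and since both carry a transgene it does not check those labels. Of 11 neuronal markers 9 or 10 were detected in every library of each group, with Nefl and Nefm under 1 CPM, and the summed astrocyte and microglial markers stayed at or under 4.34 CPM. Summed oligodendrocyte markers reached 16.6 CPM (N2A WT soma) and fibroblast markers 31.2 CPM (Q331K soma). In the CAD WT and KO groups the 6 catecholaminergic markers summed to 259 to 493 CPM. Slc18a2 was under 1 CPM in each of these groups, and Ddc in all but KO soma.

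All 10 subunit RNAs were well expressed, and those of the scaffold Cnot1 and of the enzymes Cnot7 and Cnot6 were the 3 most abundant in the WT soma of each experiment. Levels were compared between genes only as TPM (abundance per transcript length, relative to the library), within libraries. In CAD WT soma Cnot7 stood at 120 ± 23 TPM (SD, n = 3), Cnot1 between 91 and 105, Cnot6 at 94 ± 15, Cnot2 at 82.2 ± 13, Cnot8 at 64.6 ± 16 and Cnot6l at 43.6 ± 5.7, and each of these overlapped its neighbour in the order. A gap then separated Cnot6l from the 4 lowest, Cnot3 at 27.8 ± 3.8, Cnot10 at 26.7 ± 5.4, Cnot9 at 24.7 ± 5.2 and Cnot4 at 20.9 ± 3.7 TPM. Each of these overlapped its neighbour, but Cnot3 (23.6 to 31.2 TPM) lay apart from Cnot4 (16.6 to 23.1 TPM). In N2A WT soma Cnot7 (132 TPM) and Cnot1 (108 TPM) again led and overlapped, and Cnot10 was the lowest at 15.7 ± 1.1 TPM, apart from Cnot9 at 20.2 ± 2. The WT soma of the transgene experiment had Cnot6 first at 154 ± 5.2 TPM, apart from Cnot1 at 132 ± 13, and Cnot4 last at 31 ± 2.1 TPM.

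Within the Ccr4-type pair Cnot6 exceeded Cnot6l in the WT soma of each experiment (94 against 43.6 TPM in CAD, 85.7 against 23.3 in N2A and 154 against 65.2 in the transgene cells), with no overlap of the libraries. Within the Caf1-type pair the Cnot7 libraries also lay above the Cnot8 libraries. Part of the Cnot8 level rests on a single short transcript, since the 231-base Cnot8-203 held 42.1 to 53.9% of Cnot8 TPM in CAD WT soma on only 38 to 65 counts. Summed over protein-coding transcripts alone, Cnot6 was first in CAD WT soma (81.1 TPM) and Cnot7 in N2A WT soma (76.8 TPM). TPM was not compared between soma and neurites, because 4 RNAs of 57 or 123 bases took 37.7 to 64.2% of TPM in CAD neurites and 10.1 to 38.4% in CAD soma.

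**Figure D1:**
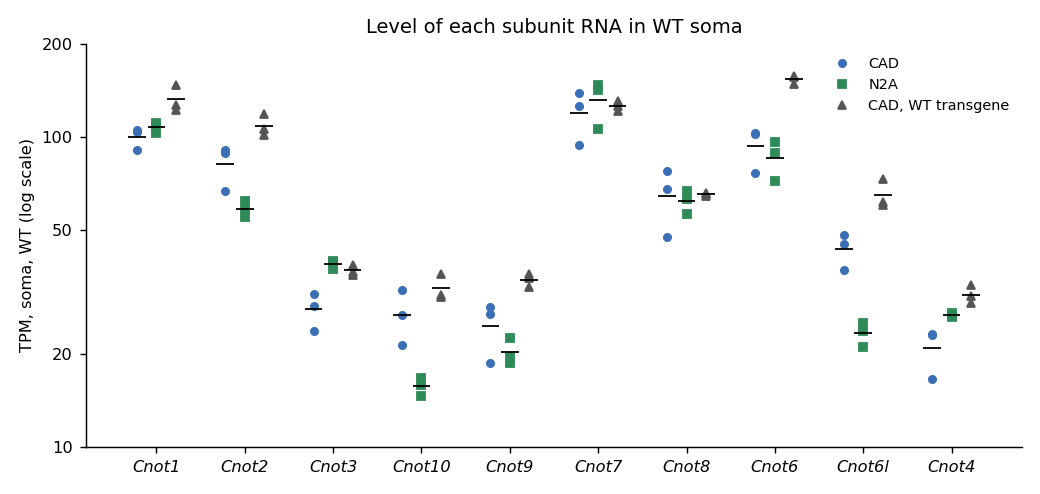
Level of each subunit RNA in WT soma, in TPM on a log axis, with 1 point a library and a line at the mean of 3 libraries, for CAD cells, N2A cells and CAD cells with the WT transgene. Cnot7, Cnot1 and Cnot6 are the 3 highest in each experiment, from 85.7 to 154 TPM on average, and Cnot4, Cnot9 and Cnot10 are among the 4 lowest.

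In CAD cells the RNAs of both Ccr4-type enzymes fell and that of Cnot10 rose in KO neurites, and Cnot6 also fell in KO soma. A gene was called at an adjusted p under 0.01 in edgeR's quasi-likelihood test over all genes tested. In CAD neurites 3 of 10 subunit RNAs passed, 1 higher and 2 lower, where 11.8% of the 17343 genes tested were called higher and 13.5% lower. In CAD soma 1 of 10 passed, Cnot6, where 11.2% of genes were called higher and 11.6% lower. These shares of the members lie near those of all genes. Without WT soma replicate 3 or KO soma replicate 3 the soma count was 2. In CAD neurites 4 of 10 members were higher and 3 lower without overlap of the libraries, against 22.6% and 23.9% of all genes. In CAD soma 2 were higher and 4 lower without overlap, against 21.5% and 22.4% of all genes.

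Cnot6, a catalytic subunit, had 195, 209 and 196 CPM in CAD WT soma and 157, 158 and 177 in KO soma. The groups did not overlap, and Cnot6 fell by 0.29 on the log2 scale (SE 0.065, adjusted p = 0.00271, 0.819 times the WT level). This call was lost without WT soma replicate 2 (log2 change -0.26, adjusted p = 0.0201), KO soma replicate 1 (-0.25, 0.0159) or KO soma replicate 2 (-0.27, 0.0217). In CAD neurites Cnot6 had 200.3, 206 and 196 CPM in WT and 141, 152 and 154 in KO cells. Every KO neurite library lay below every WT one, and the log2 change was -0.43 (SE 0.066, adjusted p = 7.89e-05, 0.742 times).

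Its paralogue Cnot6l had 105, 105 and 98.2 CPM in CAD WT neurites and 83.1, 81.4 and 79.6 in KO neurites. The groups did not overlap, and the log2 change was -0.34 (SE 0.082, adjusted p = 0.00428). This is a weaker call than that of Cnot6: it was lost when any of 5 of the 6 neurite libraries was left out, WT replicate 3 being the exception (log2 changes -0.35 to -0.32, adjusted p 0.0137 to 0.0213), and with library totals as the only scaling (-0.22, adjusted p = 0.0595). In CAD soma Cnot6l had 112, 134 and 113 CPM in WT and 89.3, 101 and 111 in KO cells, a log2 difference of -0.25 that did not pass (adjusted p = 0.0232).

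Cnot10, which anchors CNOT11 to the scaffold, had 48.4, 42.8 and 46.5 CPM in CAD WT neurites and 68.2, 60.4 and 60.4 in KO neurites. All KO libraries were higher, with a log2 change of 0.46 (SE 0.071, adjusted p = 0.000101, 1.37 times), and the 12 fits that each left out a library gave 0.40 to 0.49. In soma the WT libraries had 45.1, 42.5 and 49.3 CPM and the KO libraries 53.5, 52.8 and 54.3, a log2 difference of 0.23 that missed the threshold (adjusted p = 0.018). Its partner Cnot11, measured beside the 10, differed by 0.20 in soma and 0.22 in neurites (adjusted p = 0.0442 and 0.0282).

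The scaffold and the other subunits did not pass in either compartment of CAD cells. In neurites Cnot2 had 140.0, 141 and 135 CPM in WT and 172, 164 and 147 in KO cells, without overlap (log2 difference 0.22, adjusted p = 0.0124). Cnot1 differed by 0.20 (adjusted p = 0.0335) and Cnot7 by 0.21 (adjusted p = 0.0389), and their neurite groups did not overlap either. Cnot3, Cnot4, Cnot8 and Cnot9 had neurite differences between -0.16 and 0.07. In soma the differences of Cnot1, Cnot2, Cnot3, Cnot4, Cnot7, Cnot8 and Cnot9 ran from -0.11 to 0.17, each with an SE under 0.08.

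**Figure D2:**
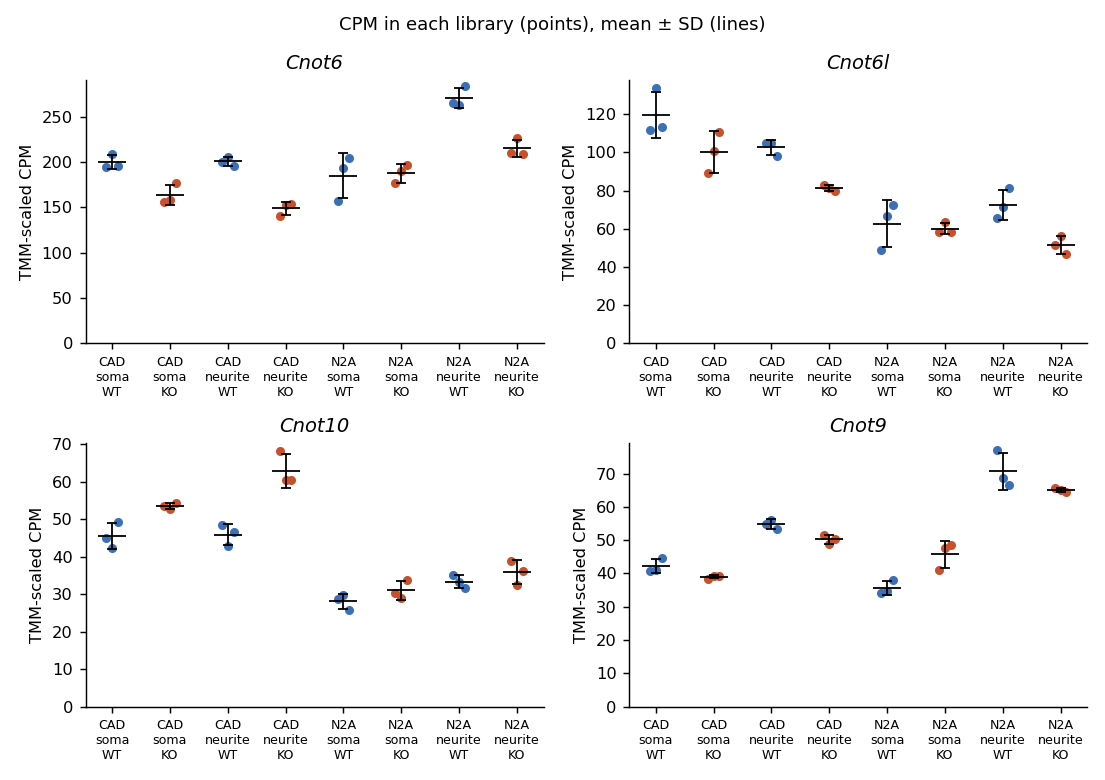
TMM-scaled CPM of Cnot6, Cnot6l, Cnot10 and Cnot9 in each CAD and N2A library (points, blue for WT and red for KO), with the mean ± SD of 3 libraries as lines. Cnot6 and Cnot6l neurite libraries are lower in KO than in WT cells of both lines without overlap, the Cnot10 KO libraries are higher in both compartments of CAD cells, and Cnot9 is higher in KO soma of N2A cells. Of all genes 23.9% were lower without overlap in CAD neurites and 20.2% in N2A neurites.

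In N2A cells a single subunit RNA passed, Cnot9 in soma, which binds TNRC6 proteins in the complex. Its libraries had 34.2, 34.9 and 38.1 CPM in WT soma and 41.1, 47.6 and 48.6 in KO soma. The groups did not overlap, and Cnot9 rose by 0.36 on the log2 scale (SE 0.084, adjusted p = 0.00551, 1.28 times), as 1 of 10 members where 10.9% of the 17912 genes tested were called higher and 5.15% lower. The call was lost without WT soma replicate 1 (0.33, adjusted p = 0.0269) or 2 (0.43, 0.0187) and without KO soma replicate 2 (0.34, 0.0331) or 3 (0.37, 0.0172). In N2A soma 4 of 10 members were higher and 0 lower without overlap, against 23.3% and 18.8% of all genes. Cnot11, outside the 10, also rose in N2A soma by 0.39 (SE 0.094, adjusted p = 0.00686). Cnot3 was next among the members at 0.25 (adjusted p = 0.0302), and the other 8 lay between -0.06 and 0.16. Without KO soma replicate 1 the count was 2. Mitochondrial transcripts took 4.1 to 6.22% of counts in N2A WT soma and 6.92 to 8.95% in KO soma, and their part in this result was not tested.

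No subunit RNA passed in N2A neurites by edgeR, where 6.48% of genes were called higher and 5.1% lower. At an unadjusted p under 0.05 there were 4 of 10 members and 32.3% of all genes, and DESeq2 called 2 members and 18.9% of the genes to which it gave an adjusted p, so these shares lie near those of all genes. Cnot6l had 65.5, 71.3 and 81.1 CPM in WT neurites and 51.6, 56.2 and 46.6 in KO neurites, without overlap, and its log2 difference of -0.50 (SE 0.13) missed the threshold at an adjusted p of 0.0105. Cnot6 had 266, 263 and 284 CPM in WT and 210.4, 226 and 209 in KO neurites, again without overlap (log2 difference -0.33, SE 0.091, adjusted p = 0.017). In N2A neurites 5 of 10 members were lower and 0 higher without overlap, against 20.2% and 17.4% of all genes. Without N2A WT soma replicate 1, a library that lies in neither group compared, 2 members passed. In N2A soma Cnot6 and Cnot6l differed by 0.02 (SE 0.091) and -0.06 (SE 0.12), and their WT libraries spread widely, from 157 to 204 CPM for Cnot6 and from 48.9 to 72.2 for Cnot6l. For neither gene did edgeR call a difference between the soma and neurite changes.

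Both lines can be set side by side, since they share no control. The Cnot6 neurite difference was -0.43 in CAD and -0.33 in N2A cells, and that of Cnot6l -0.34 and -0.50. In a single edgeR model of the 24 CAD and N2A libraries the difference between lines was 0.15 (SE 0.12, adjusted p = 0.465) for Cnot6 and -0.11 (SE 0.17, adjusted p = 0.744) for Cnot6l. For Cnot10, 0.46 in CAD and 0.10 in N2A neurites, the line difference in that model was -0.30 (SE 0.12, adjusted p = 0.101). None of the 10 neurite differences was called between the lines, where 9.18% of genes were, and 6 members had a called line difference in the WT ratio of neurite to soma, where 18.4% of genes had one. With upper-quartile scaling these counts were 2 and 1 (12.3 and 16.6% of genes), and with library totals only 4 and 10 (13.7 and 33.6%), so both rested on the scaling. A missed threshold does not show that the lines respond alike.

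**Figure D3:**
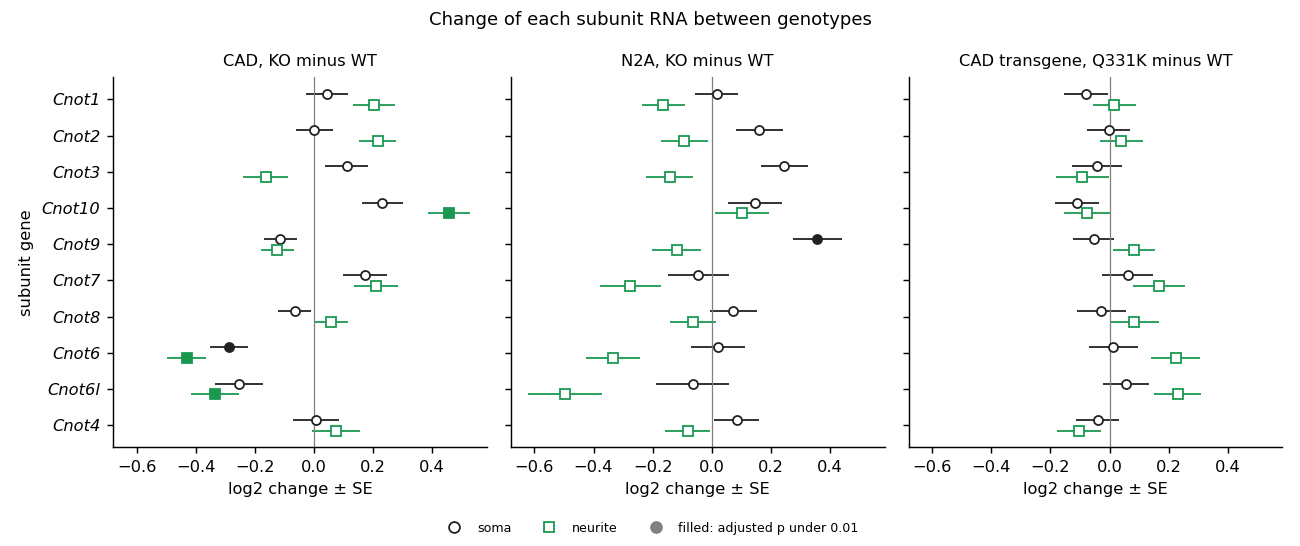
log2 change ± SE of each subunit RNA between genotypes in soma (circles) and neurites (squares), for CAD KO minus WT, N2A KO minus WT and Q331K minus WT, with filled symbols for an adjusted p under 0.01. Filled symbols are Cnot6 (soma and neurites), Cnot6l and Cnot10 (neurites) in CAD and Cnot9 (soma) in N2A, and none in the transgene cells.

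Q331K TDP-43 gave no called subunit RNA. In the transgene cells edgeR called 0 of 10 in soma and in neurites, where 0% of the 13940 genes tested were called in either direction. DESeq2 called 0 members as well (0% of genes with an adjusted p in soma and 0.355% in neurites). At an unadjusted p under 0.05 there were 0 members in soma, where 7.14% of all genes were, and 2 in neurites, where 9.84% were. Those were Cnot6l, with 115, 114 and 123 CPM in WT and 124, 139 and 149 in Q331K neurites (log2 difference 0.23, SE 0.08), and Cnot6, with 269, 269 and 298 against 296, 322 and 357 (0.22, SE 0.084). Both differences were positive, whereas those of KO neurites of CAD and N2A cells were negative, and neither passed after adjustment (adjusted p = 0.366 and 0.393). Intervals of 2 SE around the member differences ran from -0.26 to 0.24 in soma and from -0.27 to 0.39 in neurites, in libraries that were shallower than those of the other experiments.

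Within WT cells the subunit RNAs differed in how they were divided between soma and neurites. The measure is the log2 ratio of neurite over soma CPM (LR), which is relative to the middle gene because of the TMM scaling. In CAD WT cells 3 of 10 were called higher in neurites and 1 lower, where 23.7% of genes were called higher and 17.7% lower. The scaffold Cnot1 had 419, 405 and 388 CPM in soma and 321, 281 and 273 in neurites, an LR of -0.47 (SE 0.071, adjusted p = 3.99e-05). Cnot9 went the other way, with 40.8, 41.1 and 44.6 CPM in soma and 55, 56.2 and 53.3 in neurites (LR 0.38, SE 0.056, adjusted p = 3.37e-05). Cnot2 (LR 0.28, adjusted p = 0.00114) and Cnot7 (LR 0.32, adjusted p = 0.00187) were also called, and the Cnot7 call was lost without WT neurite replicate 2 (0.29, adjusted p = 0.0134) or WT soma replicate 1 (0.28, 0.0127). With library totals as the only scaling the median LR of all genes moved by -0.673, and Cnot2, Cnot7 and Cnot9 then had an LR of -0.39, -0.36 and -0.30, so their direction holds relative to other genes and not as a share of all counts. Cnot6, Cnot10 and Cnot4 had an LR of 0.00, 0.01 and -0.10, Cnot8 0.19, and Cnot3 and Cnot6l -0.22 each.

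N2A WT cells had 6 of 10 subunit RNAs called higher in neurites and 0 lower, where 32.5% of genes were called higher and 26.6% lower. Cnot9 again led, with 34.2, 34.9 and 38.1 CPM in soma and 77, 68.7 and 66.4 in neurites (LR 0.98, SE 0.084, adjusted p = 7.71e-08, 1.98 times). Cnot2 had 75.4, 87.5 and 84 CPM in soma and 145, 141 and 134 in neurites (LR 0.77, SE 0.079, adjusted p = 5.16e-07). The Caf1-type RNAs Cnot7 and Cnot8 had an LR of 0.73 and 0.66, Cnot6 0.55 and Cnot4 0.40. Cnot1 was again the lowest, at -0.20 (adjusted p = 0.0239), and Cnot11 stood at 0.94. These values rested on the scaling, since the median LR of all genes moved by -0.296 with upper-quartile scaling and by -0.338 with library totals only. Under these settings Cnot4 had an LR of 0.11 and 0.07 and was not called (adjusted p = 0.165 and 0.396), and Cnot6 had 0.26 and 0.22, the latter not called (adjusted p = 0.032). Cnot1 had -0.50 and -0.54 and was then called lower (adjusted p = 1.02e-05 and 3.14e-06), as it was by DESeq2 (-0.26) and with at least 10 counts in every library (-0.43), where Cnot4 was not called (0.17). Cnot9, Cnot2, Cnot7 and Cnot8 were still called with library totals only, at 0.64, 0.43, 0.39 and 0.32, while Cnot8 turned to -0.14 with length-scaled counts (adjusted p = 0.315).

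In the transgene WT cells Cnot1 (LR -0.40, adjusted p = 0.000421; -0.23 and not called with length-scaled counts, adjusted p = 0.0508) and Cnot3 (-0.33, adjusted p = 0.00577) were called lower and Cnot2 (0.27, adjusted p = 0.00676; -0.25 with library totals only) higher, against 14.9% of genes higher and 12.6% lower. Of these only Cnot1 passed without WT soma replicate 1 or without WT soma replicate 2. The Cnot2 call was also lost without WT soma replicate 3, WT neurite replicate 1 or Q331K soma replicate 2 (LR 0.24 to 0.28 over the 5 libraries), and the Cnot3 call without WT neurite replicate 2 or 3 (LR -0.35 to -0.28 over the 4 libraries).

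The KO cells of CAD had 5 members called higher in neurites (Cnot2, Cnot7, Cnot8, Cnot9 and Cnot10) and 3 lower (Cnot1, Cnot3 and Cnot6l), against 24.6% and 19% of genes. In N2A KO cells 4 were higher (Cnot2, Cnot7, Cnot8 and Cnot9) and 1 lower (Cnot1, LR -0.38, adjusted p = 0.000448), against 25.3% and 13.1%. In Q331K cells 3 were higher (Cnot2, Cnot7 and Cnot9) and 2 lower (Cnot1 and Cnot3), against 16.7% and 14.5%. Cnot1 was thus called lower in neurites in every genotype of each experiment but N2A WT, where the call depended on the scaling, tool and filter as given above. The alternatives were not run on the LR of KO and Q331K cells, so how far those calls rest on the scaling was not tested.

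Other quantities differed between the fractions too. Mitochondrial transcripts took 4.19 to 7.01% of counts in CAD soma and 13.9 to 22.3% in CAD neurites. The summed nuclear RNAs Malat1, Neat1, Meg3 and Kcnq1ot1 ranged from 581.9 to 2445 CPM in CAD WT soma and from 261 to 596 in WT neurites. In N2A WT cells they ranged from 1112 to 3751 CPM in soma and from 319 to 542 in neurites, with all 4 called lower in neurites. Their part in the LR of the subunits was not tested.

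**Figure D4:**
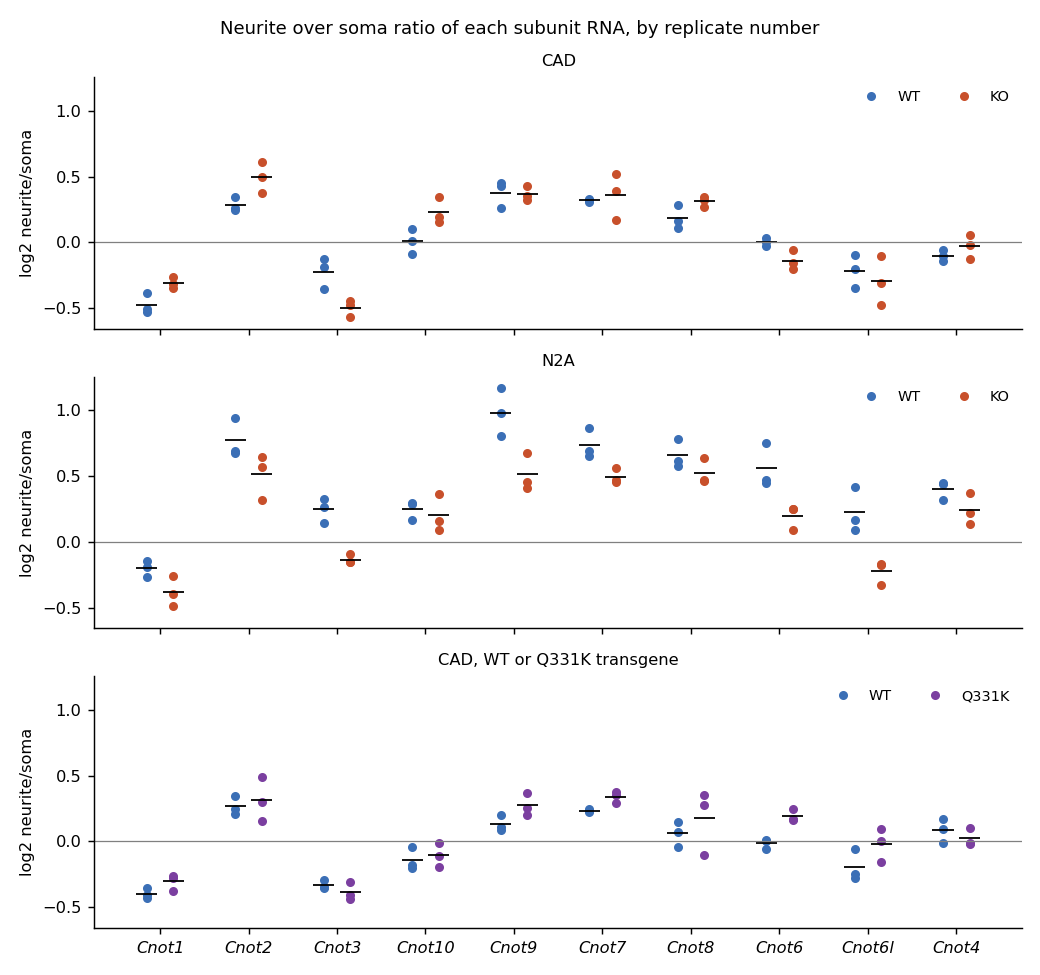
log2 neurite over soma ratio of each subunit RNA for libraries with the same replicate number (points), with the mean as a line, in CAD and N2A cells (WT and KO) and in CAD cells with a WT or Q331K transgene. Cnot1 lies below 0 in each genotype of each experiment and Cnot2, Cnot7 and Cnot9 above 0 with TMM scaling. With library totals only, these last 3 turn negative in CAD WT cells, as does Cnot2 in cells with the WT transgene. The KO and Q331K ratios were not refitted with other scalings. Every N2A mean is lower in KO than in WT cells.

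The change of LR between genotypes was called for no subunit RNA in any experiment. In CAD cells the LR changes (KO minus WT) ran from -0.27 for Cnot3 to 0.23 for Cnot10, and 0 of 10 were called (background 0.225% of genes higher and 0.208% lower). At an unadjusted p under 0.05 there were 3 of 10 members and 10.5% of all genes. In the transgene cells they ran from -0.06 to 0.21, with 0 called (background 0%) and 0 at an unadjusted p under 0.05 (4.34% of all genes).

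In N2A cells the LR difference was negative for all 10 subunits, from -0.48 to -0.04, although the sign of Cnot10 turned with upper-quartile scaling, at least 10 counts in every library or 1 library left out and that of Cnot8 with length-scaled counts. The median was -0.242 against -0.01 over all genes tested. None was called by edgeR (background 0.0893% of genes higher and 0.0112% lower). At an unadjusted p under 0.05 there were 5 of 10 members and 31.2% of all genes, and DESeq2 called 3 members and 23.3% of the genes to which it gave an adjusted p. Without KO soma replicate 1 edgeR called 1. The most negative was Cnot9, with an LR of 0.98 in WT and 0.51 in KO cells (difference -0.48, SE 0.12, adjusted p = 0.0358), followed by Cnot6l (-0.43, SE 0.18, adjusted p = 0.112) and Cnot3 (-0.39, SE 0.11, adjusted p = 0.0466). In 6 of 10 the WT and KO ratios did not overlap, where 19.6% of all genes were lower without overlap. The other RNA decay lists had negative medians there as well, from -0.276 to -0.167. A negative median was not particular to decay genes, since the neuronal and catecholaminergic marker lists had -0.288 and -0.381. Astrocyte, oligodendrocyte, microglial and fibroblast markers, with 2 genes tested in each list, had positive medians, from 0.098 to 0.584. Mitochondrial transcripts also differed between genotypes in N2A neurites, at 3.82 to 6.79% of counts in WT and 8.54 to 14% in KO libraries, and the 4 nuclear RNAs had a median LR difference of 1.079 with 0 called; their part in the subunit values was not tested.

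At the transcript level, forms of the scaffold gene Cnot1 moved in opposite directions in CAD neurites. Cnot1-203, which lacks the 15-base and the 6-base segment printed above, had 1105, 1202 and 1075 estimated counts in CAD WT neurites and 580, 430 and 434 in KO neurites. It fell by 1.26 on the log2 scale (SE 0.18, adjusted p = 0.00118, adjusted by edgeR over all transcripts tested). Cnot1-202, which carries both segments, rose in the same libraries by 0.54 (SE 0.073, adjusted p = 0.000895). N2A neurites also had less Cnot1-203, with 1140, 1424 and 1488 counts in WT and 562, 912 and 835 in KO libraries (log2 change -0.83, SE 0.13, adjusted p = 0.00457), while Cnot1-202 differed by -0.09 there (adjusted p = 0.767). The N2A call was lost without any of 9 of the 12 libraries (log2 changes -0.87 to -0.72, adjusted p 0.0106 to 0.0253), the exceptions being WT soma replicates 2 and 3 and KO neurite replicate 2, and with the replicate number as a block (adjusted p = 0.011).

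In soma the same transcript had 1926, 2646 and 1809 counts in CAD WT and 1121, 1006 and 1205 in KO cells, without overlap, at an adjusted p of 0.0133. In N2A soma it had 1617, 1226 and 1858 counts in WT and 960, 1031 and 1162 in KO cells (adjusted p = 0.0203). Between WT and Q331K cells its log2 difference was -0.05 in soma and -0.02 in neurites (SE 0.17 each). Of 67 subunit transcripts tested in CAD cells 0 were called in soma and 3 in neurites, with a background of 2.26% higher and 1.89% lower in soma and 2.65% and 2.82% in neurites. In N2A cells 0 and 1 of 68 were called, with 1 in soma when KO soma replicate 1 was left out (background 2.63% and 0.43% in soma, 0.931% and 0.784% in neurites), and in the transgene cells 0 of 58 in both compartments (background 0% and 0.00288% in soma and 0.0115% each way in neurites).

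Among the Cnot1 transcripts that cover the site of the 15-base segment, those with the segment held 87.9, 83 and 86.6% of the TPM in CAD WT soma and 91.4, 93.3 and 93% in KO soma. CAD neurites had 85.6, 82 and 85.8% in WT and 93.3, 94.3 and 94.9% in KO libraries. In N2A cells the mean share was 86.7 ± 1.1% (SD, n = 3) in WT and 91.7 ± 0.79% in KO soma, and 86.5 ± 1.6% in WT and 90.7 ± 1.9% in KO neurites. KO libraries thus lay above WT libraries in both compartments of both lines, with no overlap. The covering transcripts made up 66.1 to 91.6% of all Cnot1 TPM in the CAD and N2A libraries. As a share of all Cnot1 TPM, the forms with the segment held 65.8 to 74% in CAD WT and 64.5 to 79.6% in KO soma, 66.3 to 75.1% and 66.5 to 74.4% in CAD neurites, 58.3 to 73.2% and 66 to 80.9% in N2A soma and 66.8 to 70.5% and 59.2 to 74.9% in N2A neurites. With that denominator the genotypes overlapped in each case, so the separation holds only among transcripts that cover the site. Among covering transcripts the transgene cells had lower shares in all 4 groups, with means from 79.6 to 81.8%, and WT and Q331K ranges overlapped. These groupings of transcripts and the second denominator were chosen after the values were seen and were not tested, and the shares rest on salmon's division of reads among transcripts that differ by few bases.

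**Figure D5:**
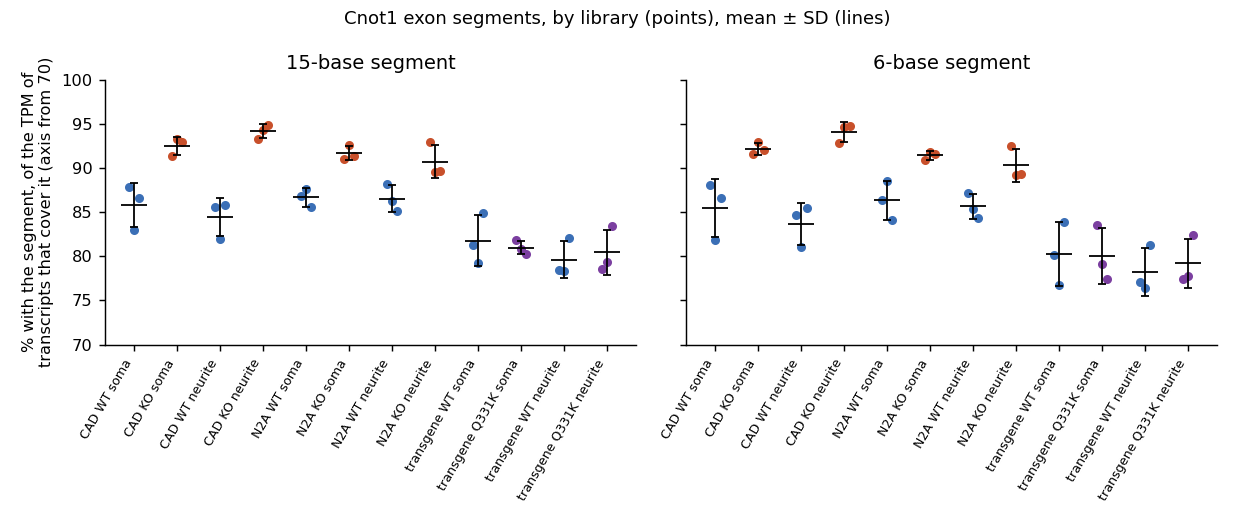
TPM of Cnot1 transcripts with the 15-base segment (left) or the 6-base segment (right), as a percent of the TPM of the Cnot1 transcripts that cover that segment's site, in each library (points) with the mean ± SD of 3 libraries, on an axis that starts at 70. For the 15-base segment, KO libraries of CAD and N2A cells (89.5 to 94.9%) lie above the WT libraries (82 to 88.2%), and the transgene groups (78.3 to 84.9%) overlap each other.

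The 15-base segment of Cnot6 is in Cnot6-203, with a 3′ UTR of 3690 bases, and not in Cnot6-201, with one of 480 bases. These forms differ in more than the segment, so the shares below describe whole transcripts and not use of the segment alone. In CAD neurites Cnot6-201 fell by 0.65 on the log2 scale (SE 0.11, adjusted p = 0.00419), and Cnot6-203 differed by -0.39 (SE 0.08, adjusted p = 0.0102). Among the transcripts that cover the site, the share of TPM with the segment was 77.9 ± 2.3% in CAD WT neurites and 80.7 ± 0.77% in KO neurites, with overlapping libraries, and of all Cnot6 TPM it was 75.6 ± 3.8% and 77.5 ± 0.68%. The Cnot6-201 call was lost without WT neurite replicate 1 (-0.61, adjusted p = 0.0177) or 2 (-0.63, 0.0165) or KO neurite replicate 1 (-0.66, 0.0161) or 2 (-0.63, 0.02), and with the replicate number as a block (adjusted p = 0.0109).

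The 3′ UTRs of the subunits differed in how many UG-rich pentamers they hold. The pentamers GUGUG, then UGUGU and, last, GUAUG were counted on the mRNA strand in the longest annotated 3′ UTR of each gene, with overlaps counted, and 86.3% of 13673 genes held at least 1, with a median of 6. Cnot6l had 53 in 6847 bases, a number reached by 3.2% of genes, and Cnot6 had 22 in 3690 bases, reached by 14.2%. Per kilobase Cnot6l had 7.74, a density reached by 22.5% of genes, and Cnot1 had the highest density of the 10 at 9.41 (9 in 956 bases), reached by 15.4%. Cnot7 held 11, Cnot9 9, Cnot2 7, Cnot4 and Cnot10 2 each, Cnot8 1 and Cnot3 0. The stretches of Cnot2, Cnot7 and Cnot9, whose RNA was not called lower between genotypes, hold 3 pentamers each, as does that of Cnot6. The 30-base stretch with the most of these pentamers is shown for Cnot6l, Cnot6 and Cnot1, with the pentamers in capitals. It was taken from Cnot6l-210, Cnot6-203 and Cnot1-202. The transcripts called lower, Cnot6-201 and Cnot1-203, have 3′ UTRs of 480 and 949 bases, and whether they hold the same stretches was not examined.
Cnot6l, 3′ UTR bases 5316 to 5345: UGUGUaccacguuguuuaauuUGUGUGUGU
Cnot6, 3′ UTR bases 276 to 305: cuugaaauaggaagaUGUGUGagcaGUGUG
Cnot1, 3′ UTR bases 267 to 296: ucuuggguuUGUGUaaaGUGUGUacGUAUG
These matches describe the sequence and are no evidence of binding.

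Around the complex, genes of 4 RNA decay lists were called in both lines, most of them higher in KO cells. The shares of all genes called higher and lower, given above, were 11.2 and 11.6% in CAD soma, 11.8 and 13.5% in CAD neurites, 10.9 and 5.15% in N2A soma and 6.48 and 5.1% in N2A neurites. Several list counts lie near or under these shares, among them those of decapping genes in CAD cells and of recruiters in N2A soma. Others lie above them, and the lists were not tested as sets. Of 24 genes whose proteins recruit CCR4-NOT, 5 rose and 1 fell in CAD soma (median log2 difference 0.087, against 0.002 over all genes). The highest were Samd4 (Smaug, a translational repressor; 1.01, adjusted p = 3.1e-07), the antiproliferative adaptor Btg2 (0.83, adjusted p = 3.17e-07) and Tnrc6c of the miRNA pathway (0.67, adjusted p = 3.22e-06). In CAD neurites 5 rose and 1 fell (median 0.092), led by Btg2 (0.91), Cpeb3 (0.65) and Samd4 (0.52). In N2A soma 2 of 22 tested rose, Zfp36l2 (0.47) and Tnrc6c (0.41), and in N2A neurites Samd4 rose by 0.50 and Btg1 fell by 0.45.

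Of 11 other deadenylases and poly(A)-binding proteins, 2 rose and 1 fell in each CAD compartment. Pan2, the nuclease of the PAN2-PAN3 deadenylase, rose by 0.63 in soma and 0.89 in neurites (adjusted p = 4.52e-06 and 2.65e-07), Parn, the poly(A)-specific ribonuclease, by 0.32 and 0.39, and Pde12, a mitochondrial deadenylase, fell by 0.43 and 0.29. In N2A soma Pabpc1 (0.54), Pabpc4 (0.49) and Parn (0.43) rose, and in N2A neurites Pan2 (0.64, adjusted p = 0.000198) and Noct (0.44). Of 17 decapping and 5′-3′ decay genes 2 rose in CAD soma (Lsm2 0.43 and Lsm3 0.41), 1 in CAD neurites (the exonuclease Xrn1, 0.30), 8 in N2A soma (Lsm3 0.86, Lsm5 0.58 and Dcps 0.55 the highest; median 0.307 against -0.024 over all genes) and 1 in N2A neurites (Lsm7, 0.38), and none fell. Of 16 exosome and SKI genes tested 5 rose in CAD soma, 4 rose and 1 fell in CAD neurites, 5 rose in N2A soma and 0 passed in N2A neurites, with Exosc5 (0.48) the highest in CAD soma, Dis3 (0.53) and Skiv2l (-0.50) the extremes in CAD neurites and Exosc1 (0.50) in N2A soma. In N2A neurites the list medians were -0.15 for recruiters, 0.082 for deadenylases, 0.006 for decapping and -0.005 for the exosome and SKI. The recruiter median was 0.007 in N2A soma, and the decapping median 0.017 in CAD soma and -0.011 in CAD neurites. Deadenylase medians were 0.058 in CAD soma, 0.105 in CAD neurites and 0.111 in N2A soma. Those of the exosome list were 0.196, 0.161 and 0.231 in that order. No gene of these lists was called between WT and Q331K cells or for an LR change.

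Some member values are less certain than their SE shows. Of the 31-base stretches of Cnot3 and Cnot8 transcripts 12.2 and 11.7% also occur in transcripts of other genes (for Cnot8, the pseudogene Gm18860), for Cnot1 5.6%, for Cnot6 1.24% and for the other 6 under 1%. Cnot3 overlaps Leng1, Cnot7 overlaps Zdhhc2 and Vps37a, and Cnot9 overlaps Usp37, each on the opposite strand, and whether the counting used strand is not given in the sources used here.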

How the data were processed

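The authors trimmed reads with cutadapt and quantified them against mouse transcripts (mm10) with salmon. The deposited files give, for each transcript and library, estimated counts and TPM. The annotation version is inferred: transcripts were summed to genes here with GENCODE vM21. Estimated counts were rounded to whole numbers. Tests used edgeR 4.0.16 (quasi-likelihood, TMM, filterByExpr) in R 4.3.3 with limma 3.58.1, 1 model of 4 groups for each experiment of 12 libraries, Benjamini-Hochberg adjustment over all genes (or transcripts) tested and a threshold of 0.01. DESeq2 1.42.0, other scalings, filters, a replicate block, length-scaled counts and leaving out each library were alternatives. Scripts were tested on simulated data. Depth sets counting precision: the members had 341 to 15919 estimated counts a library. Deviations of same-numbered libraries were most alike between the genotypes of N2A soma (correlations 0.123 to 0.551), a pairing read from the data. Between the genotypes of CAD soma the correlations ran from 0.0897 to 0.486, and between CAD WT soma and neurites from 0.0999 to 0.23. The members and lists were chosen with earlier results of these data known. Every member and Cnot11 are named, and of each list up to 3 called genes with the largest change. The 50 other samples of the series were not used here.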

Additional observations from a re-analysis of the deposited data

Results flagged for a closer look

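Both lines, CAD and N2A, received the same treatment, and the difference between them (N2A minus CAD, log2) was tested in 1 edgeR model of 24 libraries. For the KO change in soma, Cnot9 differed between the lines by 0.55 (SE 0.11, adjusted p = 0.000829), with -0.14 in CAD and 0.41 in N2A cells in that model. It was also called with upper-quartile scaling (0.36) and with library totals only (0.39), as 1 of 10 members where 10.5% of genes were called. For the WT LR, 6 of 10 members were higher in N2A than in CAD cells, where 18.4% of genes were called in either direction. These were Cnot9 by 0.61 (adjusted p = 0.000242), Cnot6 by 0.55 (adjusted p = 0.00157), Cnot4 by 0.51 (adjusted p = 0.00235), Cnot2 by 0.49 (adjusted p = 0.00138), Cnot3 by 0.48 (adjusted p = 0.00192) and Cnot8 by 0.48 (adjusted p = 0.000626). With upper-quartile scaling only Cnot9 (0.40) of these 6 was called, where 16.6% of genes were. With library totals only all 10 members were called, where 33.6% of genes were, so the number depends on the scaling. All 10 differences were positive under each of the 3 scalings. The median difference over all genes was 0.04 with TMM, -0.163 with upper-quartile scaling and 0.369 with library totals only. The share of all genes with a positive difference was not counted. Neurite changes and LR changes differed between the lines for 0 members (background 9.18% and 0.203%), although 2 neurite changes (Cnot1 and Cnot7) were called with upper-quartile scaling and 4 with library totals only.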

How the results depend on the processing

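Counts of members called moved with the threshold, tool and scaling. In CAD soma 1 member was called, against 3 at an adjusted p of 0.05, 3 by DESeq2, 2 with upper-quartile scaling, 2 with at least 10 counts in every library, 2 with the replicate block and 0 to 2 when a library was left out. In CAD neurites 3 became 6 at 0.05, and for the CAD WT LR 4 became 7 at 0.05 and 10 with library totals only. N2A soma went from 1 to 2 at 0.05 and by DESeq2 (0 to 2 on leaving out a library). N2A neurites went from 0 to 2 at 0.05, by DESeq2, with the replicate block and with library totals only, to 1 with upper-quartile scaling, with no filter and with at least 10 counts, and to 0 to 2 on leaving out a library. The N2A LR change went from 0 to 2 at 0.05, 3 by DESeq2 and 0 to 1 on leaving out a library, and the transgene WT LR from 3 to 8 with library totals only and 1 to 3 on leaving out a library. Transcripts called went in CAD soma from 0 to 3 at 0.05 and by DESeq2 and 2 with at least 10 counts, in CAD neurites from 3 to 8 under each of these 3 settings and 5 with upper-quartile scaling, in N2A soma from 0 to 5, 6 and 2 (0 to 1 on leaving out a library), in N2A neurites from 1 to 3, 4 and 2 and to 0 with no filter and with the replicate block (0 to 1), and in each transgene compartment from 0 to 1 by DESeq2. Directions turned for 5 LR values that were called in the main fits. Library totals only gave -0.39 for Cnot2, -0.30 for Cnot9 and -0.36 for Cnot7 in CAD cells and -0.25 for Cnot2 in the transgene cells, and by construction this setting moves all genes (the median LR by -0.673 and -0.521). Length-scaled counts gave -0.14 for Cnot8 in N2A cells, and the cause was not tested. Values that were not called turned as well. In the model of both lines, library totals only moved the CAD WT LR of Cnot8 from 0.23 to -0.49. Those of Cnot10 and Cnot6 moved from 0.05 and 0.04 to -0.66 and -0.67. Cnot4 held 1 pentamer in place of 2 when the 3′ UTR was taken from its most abundant transcript in CAD soma. Among 22 single gene and transcript values, 139 alternatives kept direction and call, 15 lost the call and 5 turned; of 264 fits that left out a library, 228 kept both and 36 lost the call. The replicate numbers paired N2A soma libraries most, and the block changed no call there. In CAD soma, with correlations of 0.0897 to 0.486 between the genotypes, the block moved the count from 1 to 2. The cause of the moved counts was not tested.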
